A study of Mus musculus with 23 samples.

Results

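In the spinal cord of 4-month-old mice, RNA reads assigned to repeats separated the libraries into 2 sets, and the subfamilies of repeats were compared between them. The sets were chosen by the measured total repeat signal of each library and hold 10 of the 23 samples of the series. The high set has 6 samples (replicates 1 to 3 of PS19 and of control) and the low set has 4 (replicates 4 and 5 of each). Replicate numbers were given here in accession order and are not in the labels. The sample numbers in the titles run lower in all of the high set than in all of the low set, and the labels do not say what they stand for. Whether the sets differ in extraction, library or sequencing run cannot be told from the labels, so the set and any such batch cannot be told apart. Because the totals chose the sets, every high-against-low difference below is a description without a test, and the size of the general shift is no finding.

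PS19 mice express a disease-linked mutant human tau under the mouse prion protein promoter and serve as a tauopathy model. The PS19 animals were heterozygous, descended from Jackson Laboratory founders, and the controls were wild-type littermates. At 4 months there were 5 PS19 and 5 control samples, and at 9 months, used here as samples that did not choose the sets, 7 PS19 and 6 control samples. All were poly(A)-selected, stranded libraries of total spinal cord lysate. The labels do not state in so many words that each sample is a separate animal, so p-values measure the spread between these samples. The table lists repeats alone, and spinal cord markers could not be checked in it. In a bulk lysate, fewer cells of a type and less RNA per cell cannot be told apart.

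Repeats of the mouse genome are mostly remains of mobile elements. LINEs encode the proteins for their own reverse transcription, SINEs such as B1 and B2 are short and borrow that machinery, LTR elements descend from retroviruses, and DNA transposons moved without an RNA copy. In an LTR element the internal part (names ending in -int) carries the coding region and the flanking LTRs carry the promoter and the polyadenylation signal. Many LTRs stand alone, without an internal part, after recombination. DNA transposons, L2, MIR and the older L1 and MaLR subfamilies stopped moving long ago and lie scattered through introns and intergenic sequence. Intracisternal A particles (IAP), ETn/MusD, some murine leukemia virus-like elements and the L1Md subfamilies hold young copies that can make transcripts of their own. The table gives a sum per subfamily, so reads from an element's own transcript, from an intron or from genomic DNA were not separated, and their part in the results was not tested.

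The values are reads per subfamily over each sample's size factor, called normalized reads here. Totals in the high set ran from 1494944 to 2459738, with a median of 1739447. In the low set they were 779835 in PS19 replicate 4, 471178 in PS19 replicate 5, 507549 in control replicate 4 and 646328 in control replicate 5. The lowest total of the high set, that of PS19 replicate 1, was thus 1.92 times the highest of the low set, and each set spanned a ratio of about 1.65 from its lowest to its highest sample. The 9-month totals ran from 370990 to 539759 and overlapped those of the low set. The size factors overlapped between the sets, at 0.866 to 1.25 in the high and 0.847 to 1.23 in the low set. Before scaling, the libraries had 1623419 to 2168280 repeat reads in the high set and 529522 to 687168 in the low set. Subfamilies with at least 1 read numbered 1111 to 1121 in high and 992 to 1064 in low samples, out of 1135.

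**Figure D1:**
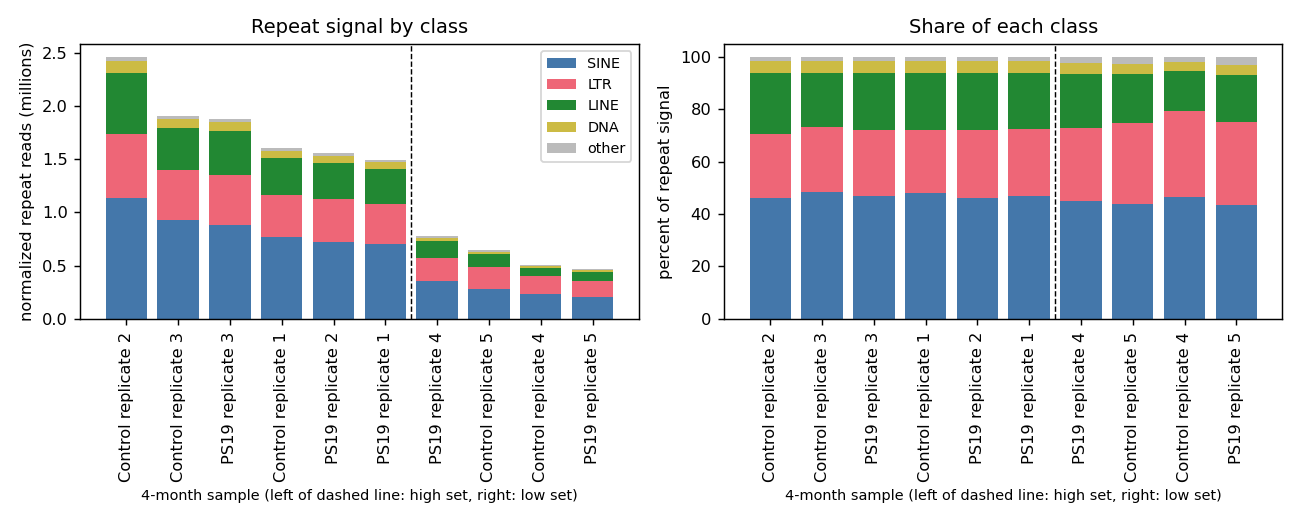
Normalized repeat reads (left) and percent of repeat signal (right) by class in the 10 samples of 4 months, ordered by total, with the high set left of the dashed line. The totals drop from 1494944 to 779835 at the line, and the LTR share is higher in every low sample than in any high sample.

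Among the 920 subfamilies with a mean of at least 10 normalized reads over the 23 samples, the median difference in mean log2(value + 1), high minus low, was 1.93. The middle 90 percent ran from 0.66 to 2.93. All 6 high samples lay above all 4 low samples in 843 of the 920 (91.6 percent), which is the background against which each list below is read. No subfamily had every high sample below every low one, 77 overlapped, and 6 had a difference of 0 or below. A difference within 0.5 log2 units of the median was found in 57.2 percent of subfamilies. The overlapping 77 held 62 of 553 tested LTR subfamilies and 8 of 162 DNA transposons. The others were X7A_LINE, the 1 LINE of 145, and UCON4, UCON20, MurSatRep1, MMSAT4, SUBTEL_sa and 7SK from smaller classes. None of the 36 SINEs was among the 77. Of the 215 subfamilies under the filter, 105 were separated in the same way and 29 had no read in the low set. Fitted within each genotype, the median difference was 1.62 in PS19 and 2.16 in control samples. Across the 743 subfamilies with a mean of at least 50 at 4 months, the differences of the genotypes had a Pearson r of 0.82. That r is over subfamilies, which share libraries and often sequence, and carries no p.

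SINEs made up the largest class by signal in both sets, and all 36 tested subfamilies were separated. Their median difference was 1.78, a little under the median of all repeats, and their share of the signal was 47.1% ± 0.996 (SD, n = 6) in the high set and 44.8% ± 1.42 (SD, n = 4) in the low set. B3, a tRNA-derived SINE of the B2 family, had 73688 to 118694 normalized reads in the high set, with a median of 85334. In the low set it had 34220 in PS19 replicate 4, 19830 in PS19 replicate 5, 19072 in control replicate 4 and 26640 in control replicate 5. The difference of 1.86 placed it close to the general shift, and the order of the low samples followed their totals except that PS19 replicate 5, lowest in total, stood just above control replicate 4. ID_B1, a composite of ID and B1 sequence in the B4 family, differed by less between the sets. Its values were 63141 to 111005 in the high set and 44262, 24370, 50924 and 42068 in the low samples in the same order, a difference of 1.04 without overlap. Among the low samples ID_B1 was highest in control replicate 4, whose total was the second lowest. Median differences were 1.78 for B1, 1.86 for B2, 1.72 for B4, 1.76 for ID and 1.74 for MIR, the ancient SINE family.

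LINEs and DNA transposons differed more between the sets than SINEs and LTR elements. The median difference was 2.17 for 145 LINE and 2.30 for 162 DNA transposon subfamilies, of which 144 and 154 were separated. The 14 tested subfamilies of unknown class had a median of 2.28, but the share of that class was smaller in the high set. It was 0.41% ± 0.06 (SD, n = 6) against 0.97% ± 0.33 (SD, n = 4). The shares of LINEs and DNA transposons were larger in the high set. They were 21.8% ± 0.85 (SD, n = 6) against 18.2% ± 2.06 (SD, n = 4) for LINEs, and 4.45% ± 0.09 against 3.63% ± 0.33 for DNA transposons. Every high sample had a larger LINE and DNA share than every low sample, narrowly for LINEs (lowest high 20.7 percent, highest low 20.5 percent). LINEs stood 0.25 and DNA transposons 0.38 above the median difference of all tested subfamilies. Without control replicate 4, a low sample, these were 0.15 and 0.27. The 64 hAT-Charlie and 38 TcMar-Tigger subfamilies, the main families of extinct DNA transposons in the table, had medians of 2.34 and 2.33. Tigger1 had 869 to 1407 normalized reads in the high set, with a median of 951. The low samples had 307.5, 148.7, 112.1 and 158.1, in the order PS19 replicates 4 and 5 and control replicates 4 and 5, and the difference was 2.55.

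Within the LINEs, the ancient L1 (83 subfamilies, 2.20) and the rodent L1 of the Lx type (32 subfamilies, 2.17) were all separated. The 15 CR1 and RTE subfamilies, old LINE families, had a median of 2.57, which dropped to 1.95 at a mean of at least 50 over all samples. Their summed signal went the other way, with a log2 difference of 1.45 against 1.60 for all repeats. Their share was 0.489 to 0.514 percent in the high set and 0.541 to 0.588 percent in the low set. L3, the member with the most normalized reads, stood at 1.27. L1ME4c, an ancient L1, had the largest difference among subfamilies with a mean of at least 50 at 4 months, 3.57. It was at 280.0 to 541 in the high set and at 80.6, 30.9, 7.67 and 35.4 in the low samples, with only 147 reads behind the 4 low values. The other 7 of the 8 largest at that level were Charlie29a (3.30), MER92-int (3.30), CR1_Mam (3.18), Kanga1a (3.12), Tigger6b (3.07), Tigger18a (3.03) and LTR37A (3.03). Of these 8, 4 were DNA transposons, 2 were LINEs and 2 were LTR elements. All 8 had a low-set mean under 50 and reached that level through the high set alone. Among subfamilies with low values in the low set, such a level favours large differences, so this tally does not rank the classes. Differences this large rest on few reads in the low set, 50 for Tigger6b and 49 for MER92-int. MER50B, an old ERV1 LTR, was close to absent in both sets, with 22 reads over the 6 high samples and 0 over the 4 low ones, and no fold is given for it. At 9 months the same subfamily had 2355 to 3943 normalized reads.

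The young L1 did not move as 1 block. The 6 L1Md subfamilies had a median difference of 1.74, with L1Md_Gf at 2.06, L1Md_F2 at 1.82, L1Md_T at 1.48 and L1Md_A at 0.86. L1Md_A, which includes recently mobile copies, had 8999 to 17141 normalized reads in the high set with a median of 11807. The low samples had 8607, 4919, 5480 and 7808, so that PS19 replicate 4 came within reach of the lowest high sample. L1Md_F2 had 21440 to 39461 in the high set and 10655, 5604, 6321 and 7924 in the low samples, well apart.

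LTR elements held 62 of the 77 overlapping subfamilies, and 553 of all 920 tested. Their share of the signal was smaller in the high set, 25.03% ± 0.76 (SD, n = 6) against 30.8% ± 2.04 (SD, n = 4), and every low sample exceeded every high sample. Of 553 tested LTR subfamilies 491 were separated (88.8 percent). The 442 names without -int had a median difference of 1.81, with 402 separated (90.95 percent, near the 91.6 percent of all subfamilies). The 111 internal parts had 1.46, with 89 separated (80.2 percent). Summed, internal parts were 7.07% ± 0.87 of the signal in the high set and 13.9% ± 1.93 in the low set. They supplied 3.69 percent of the difference between the mean totals of the sets, against 18.6 percent for the other LTR names. By family, the median difference was 1.91 for ERVL, 1.88 for ERVL-MaLR, 1.66 for ERV1 and 1.65 for ERVK. Internal parts of ERVK stood at 1.13, with 30 of 42 separated.

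**Figure D2:**
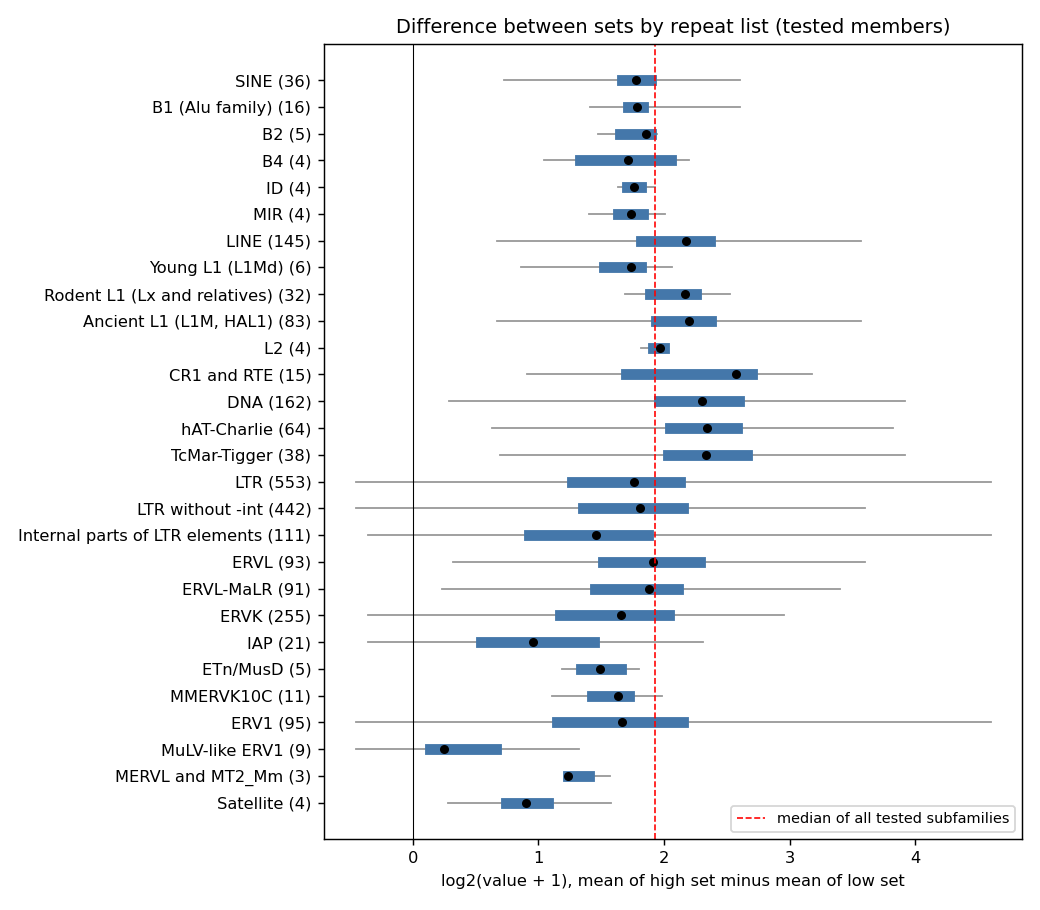
Difference between the sets, mean log2(value + 1) of the 6 high minus the 4 low samples, for the tested subfamilies of each list (number in parentheses). Points are medians, boxes the middle 50 percent, thin lines the range, and the dashed line the median of all 920 subfamilies, 1.93, with MuLV-like ERV1 (0.25), satellites (0.90) and IAP (0.95) farthest to its left.

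Murine leukemia virus-like ERV1 elements differed less between the sets than most repeats, and their sum was nearly level. Of 9 tested subfamilies, MMERGLN-int, MMERGLN_LTR and RLTR6B_Mm were separated, and the median difference was 0.25. It was 0.36 in PS19 and 0.57 in control samples alone, and 0.44 at a mean of at least 50 over all samples, in each case under the general shift. Their summed signal was 19464 ± 3943 normalized reads (SD, n = 6) in the high set and 19706 ± 1654 (SD, n = 4) in the low set, so that their share was 1.08% ± 0.18 against 3.449% ± 1.003. RLTR4_MM-int, the internal part with the most normalized reads in this list, had 10494 to 21262 in the high set, with a median of 14211. In the low set it had 14973 in PS19 replicate 4, 17466 in PS19 replicate 5, 18443 in control replicate 4 and 14691 in control replicate 5. The 4 low values lay inside the range of the high ones, and the difference was -0.15. MMVL30-int, the internal part of the VL30 retrotransposon, was at 1017 to 1437 in the high set and at 1338, 1091, 1149 and 1173 in the low samples, a difference of 0.04. RLTR4_Mm (0.13) and RLTR6-int (0.21) also overlapped. Other members of the list differed more, with MMERGLN-int at 0.62, MuLV-int at 0.66, MMERGLN_LTR at 1.23 and the highest at 1.32. Most of the level sum was RLTR4_MM-int, with means of 15128 in the high and 16393 in the low set.

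IAP elements, ERVK retroviruses that are repressed by DNA methylation in most tissues, differed less between the sets than other ERVK. Of 21 tested IAP subfamilies 13 were separated (61.9 percent) and the median was 0.95, against 1.68 for the other 234 ERVK subfamilies. IAPEz-int, the LTR-class subfamily with the most normalized reads, had 31175 to 56431 in the high set, with a median of 44955. The low samples had 33636, 26102, 34115 and 43844 (PS19 replicates 4 and 5, control replicates 4 and 5). The difference was 0.36, with control replicate 5 close to the high median and PS19 replicate 5 under every high sample. Its LTR, IAPLTR1_Mm, stood at 3795 to 6548 in the high set and at 3165, 2951, 3647 and 4705 in the low samples, a difference of 0.37 with overlap. IAP1-MM_I-int was lower in the high set by point estimate (-0.36), with values of 69.7 to 365 and 78.3 to 445 that overlapped throughout. The IAP share was 3.06% ± 0.80 in the high set and 6.93% ± 1.37 in the low set, and IAP supplied 1.08 percent of the difference between the mean totals. IAPEY3-int, another IAP internal part, followed the general shift at 2.31.

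Other young ERVs took middle places. MERVL-int, known for its expression in early embryos, had 2058 to 3411 in the high set and 1391, 806, 944 and 1192 in the low samples, a difference of 1.23 without overlap. MT2_Mm, the LTR of MERVL, stood at 1.24. The 5 ETn/MusD subfamilies had a median of 1.49 and the 11 MMERVK10C subfamilies 1.63, all separated. RLTR45-int, an ERVK internal part, was at 339.9 to 499.1 in the high set and at 216.8, 167.4, 161.0 and 216.0 in the low set (1.06). ORR1A0-int, an internal part of a rodent MaLR, was at 1445 to 1995 against 1361, 1229, 1365 and 1519, a difference of 0.23 with overlap through control replicate 5. RLTR9C (-0.09), RLTR9B2 (-0.04) and RLTR6C_Mm (-0.45, at 9.68 to 57.9 in all 10 samples) were the other LTR subfamilies at or below 0.

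Some satellites and a few unclassified repeats also fell outside the shift. MMSAT4, a satellite repeat, was at 2758 to 3534 in the high set and at 3610, 3165, 1136 and 3376 in the low samples. MurSatRep1 had 4978 to 6090 in the high set and 6036, 5885, 2031 and 5747 in the low samples. In both, 3 of the low samples lay within or above the high range, and control replicate 4 alone was far lower. Without that sample the median difference of the 4 tested satellites (MMSAT4, SUBTEL_sa, ZP3AR and IMPB_01) was 1.13, against 0.90 with it. MurSatRep1 is not in that class. Leaving out the sample makes the difference of MMSAT4 smaller, so the rise of the median came from other members. The satellites ZP3AR and IMPB_01 were separated, IMPB_01 at 6228 to 11199 against 3659, 1805, 2180 and 3406 (1.58). UCON4, an ultraconserved noncoding repeat, had the lowest difference of all (-0.57), at 163 to 413 in the high set and 569.7, 212.1, 443.8 and 532.2 in the low set.

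**Figure D3:**
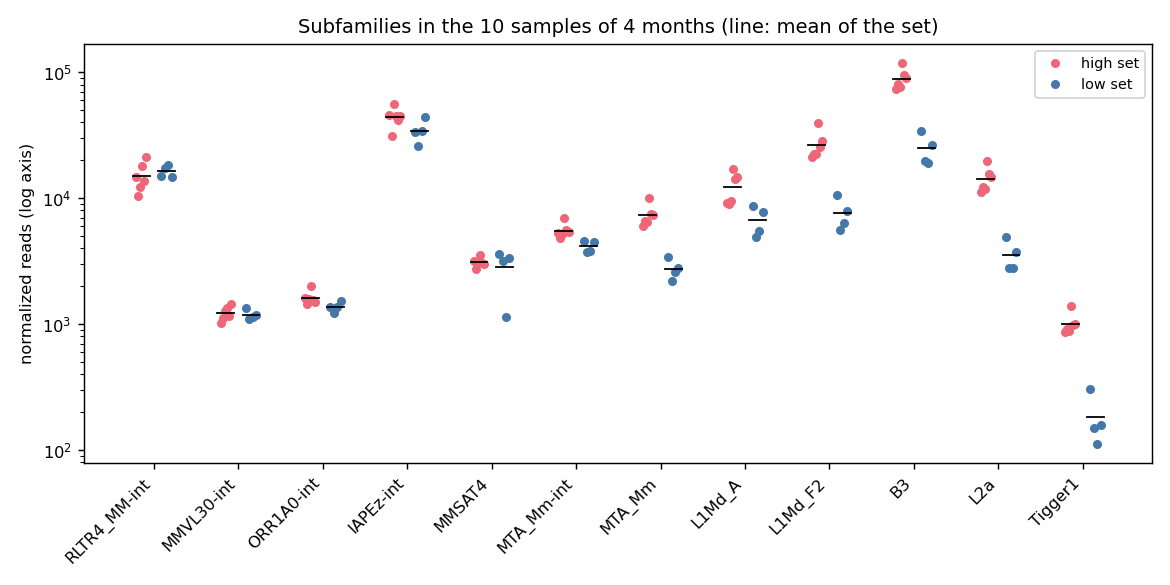
Normalized reads (log axis) of 12 subfamilies in the 6 high and 4 low samples, with a line at each set's mean. RLTR4_MM-int, MMVL30-int and IAPEz-int overlap between the sets, MMSAT4 has a single low point at 1136, and L1Md_F2, B3, L2a and Tigger1 are far apart.

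Dividing by repeat signal in place of the deposited size factors removed the general shift by construction. With TMM scaling, which sets the bulk of the repeats equal between samples, the median difference of all subfamilies was 0.04, and with shares of repeat reads it was 0.34. Directions of single lists therefore hold only relative to the general shift: under TMM scaling DNA transposons stood at 0.42, LINEs at 0.26, SINEs at -0.13, LTR elements at -0.12, internal parts at -0.45, satellites at -0.80, IAP at -0.93 and MuLV-like ERV1 at -1.65. With shares of repeat reads SINEs (0.18) and LTR elements (0.19) were above 0. Of the 74 subfamilies named by rule, 49 were below 0 with TMM scaling and 36 with shares.

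Internal parts were next set beside the LTR of the same name, which asks whether both parts of an element followed the shift alike. Of 67 such pairs, 46 had both members tested, and the internal part had the smaller difference in 30. The median gap, internal minus LTR, was -0.12 log2 units, and the paired internal parts had a median of 1.59 against 1.89 for their LTRs. At a mean of at least 50 in both, 27 of 39 had the smaller difference in the internal part and the median gap was -0.17. ERVL-MaLR elements supplied 34 of the 46 pairs, with 21 internal parts lower.

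MTA_Mm, a rodent MaLR, was the pair with the most reads among those with a wide gap. MTA_Mm-int had 4858 to 6978 normalized reads in the high set and 4605, 3731, 3826 and 4486 in the low samples, a difference of 0.41. Its LTR MTA_Mm had 6014 to 9972 in the high set and 3442, 2208, 2604 and 2773 in the low set, a difference of 1.41. The set means were 5544 ± 741 (SD, n = 6) and 4162 ± 447 (SD, n = 4) for the internal part, and 7335 ± 1412 and 2757 ± 514.5 for the LTR, so that both were separated and the internal part by a narrow margin. RLTR19-int (0.68) against RLTR19 (1.67), RMER17A-int (1.45) against RMER17A (2.50) and MER68-int (1.64) against MER68 (2.74) had gaps of like size. For RLTR19-int the low samples were spread, at 1181, 1154, 453.4 and 937. The widest gaps the other way at this level were smaller: ORR1B1-int (1.84) against ORR1B1 (1.35), MLT1J-int (2.07) against MLT1J (1.70), RLTR14-int (1.46) against RLTR14 (1.12) and MTB_Mm-int (1.61) against MTB_Mm (1.27).

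**Figure D4:**
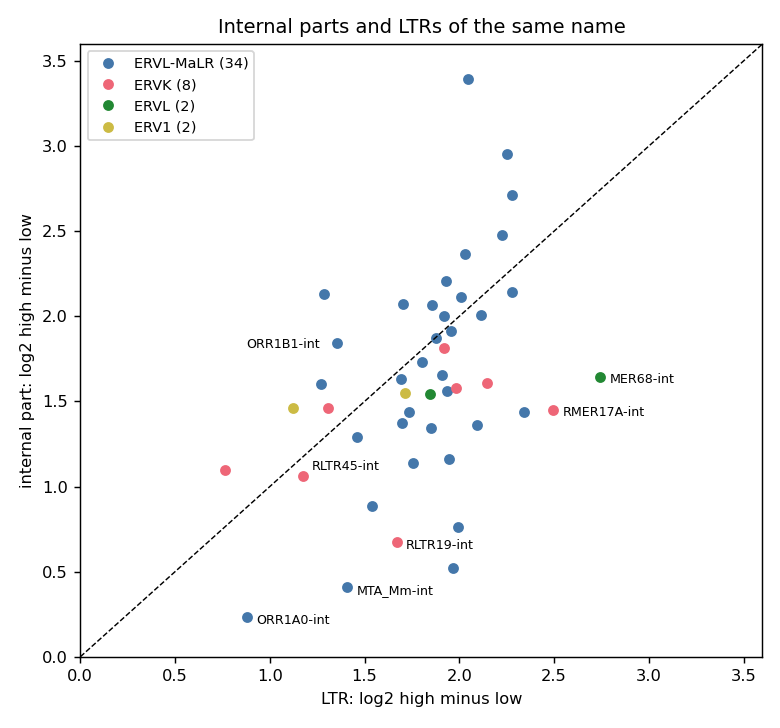
Difference between the sets (log2, high minus low) of the internal part against that of the LTR of the same name, for the 46 pairs with both members tested, coloured by family, with the line of equality dashed. The 30 pairs below the line include MTA_Mm-int (0.41 against 1.41) and RLTR19-int (0.68 against 1.67).

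The first comparison with a test asked whether PS19 and control differed at 4 months once the sets were taken into account. With a term for the set, limma called 0 of 920 subfamilies at an adjusted p of 0.05 (0 percent). At an unadjusted p under 0.05 there were 5 (IAP1-MM_I-int, LTR16D, L1ME3G, UCON6 and RLTR41A2). These 5 of 920 are under the share of 0.05 that chance alone would give, and the unadjusted counts below are read against the same share. edgeR and DESeq2 on the recovered reads also called 0, with 4 and 3 unadjusted. IAP1-MM_I-int had the smallest p, with a log2 difference of -0.97 (SE 0.36) and a limma adjusted p of 0.993. With the log2 total in place of the set, 0 were called and 88 had an unadjusted p under 0.05.

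Whether the PS19 effect itself differed between the sets was tested as an interaction. limma called 0 of 920 (0 percent), with 55 at an unadjusted p under 0.05, and edgeR and DESeq2 called 0, with 64 and 66. The lowest adjusted p was 0.26 (limma), for Chap1_Mam. The count rested on single low samples: it was 65 without control replicate 5 and 12 without PS19 replicate 5, all lower in PS19 in the high set relative to the low set, and 2 (RLTR44E and Charlie21a), both higher, without PS19 replicate 4. Each of these fits leaves a genotype of the low set with 1 sample, which is assumed to vary like the others.

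Sums of repeat lists were compared between the genotypes by exact two-sided permutation of genotype within the sets (120 assignments, smallest possible p 0.0167). None of 30 sums and none of 29 shares passed, with lowest exact p of 0.267 and 0.1. The summed IAP signal was 59052 in PS19 and 48913 in control samples of the high set, and 35663 against 45972 in the low set. PS19 thus stood 0.28 log2 units above control in the high set and 0.36 below it in the low set, an exact p for that difference of 0.0333, adjusted to 0.548 over the 30 sums. As a share of the signal IAP was 3.72, 4.34 and 2.88 percent in the high PS19 samples and 2.49, 2.24 and 2.71 percent in the high control samples. In the low set it was 5.08 and 6.72 percent in PS19 and 7.93 and 8.0 percent in control samples. The groups did not overlap in either set and pointed opposite ways, with an exact p of 0.0167, the smallest possible, and an adjusted p of 0.161 over 29 shares. The total, which is the denominator of a share and chose the sets, pointed the other way, at a mean of 1641992 in PS19 and 1991013 in control samples of the high set and 625507 and 576939 in the low set. An opposite order of the shares is therefore partly built in, and the sums, without that denominator, did not pass after adjustment. ERVK and L2 shares reached the same p.

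The 9-month samples, which did not choose the sets, gave a way to ask which subfamilies track the total of a library. log2(value + 1) was fitted on the log2 total with a genotype term in 13 samples whose totals spanned 0.54 log2 units. The total is the sum of the values tested, so some rise is built in, and a slope of 1 means growth in proportion. With limma, 359 of 920 subfamilies rose with the total (39.0 percent) and 8 fell (0.870 percent), and the median slope was 1.54. B3 had the smallest adjusted p, 1.16e-09, with a slope of 1.71 (SE 0.11). B4A, B3A, B4, B2_Mm2, MTD, Lx8 and B1_Mur4 followed, 6 SINEs of the 8 in all, with slopes between 1.42 and 1.96. The 8 that fell were the LTR subfamilies LTR50, LTR104_Mam, MER76, RLTR41C, LTR33C, MER50B, RLTR30D_RN and MLT-int. Their 9-month means exceeded those of both 4-month sets although the totals did not exceed those of the high set. LTR104_Mam had a mean of 2243 at 9 months, against 56.3 in the high and 14.2 in the low set, and LTR50 had 808, against 177 and 102. Whether the ages were scaled together is not stated in the labels.

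By list, the share that rose is read against 39.0 percent. It was 31 of 32 for the rodent L1 (all but Lx2A, median slope 2.37) and 31 of 36 for SINEs (median slope 1.28). It was 36 of 48 for the rodent MaLR (1.71) and 91 of 145 for LINEs (62.8 percent, 1.82). It was 44 of 162 for DNA transposons (27.2 percent, median slope 1.41) and 50 of 111 for internal parts (45.05 percent, 1.87). DNA transposons, above the general shift at 4 months, were thus under the background here, and internal parts, under the shift at 4 months, were a little over it. The counts also moved with level. Among subfamilies with a 9-month mean of at least 100, 67.8 percent of 357 rose, with 50 percent for DNA transposons and 69.0 percent for internal parts. SINEs, often called, had a median slope under the 1.54 of all tested subfamilies, so a high share of calls is not a steep slope.

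IAP and MuLV-like elements had few calls at 9 months. There 3 of 21 IAP subfamilies rose with the total (IAPEY4_I-int, IAP-d-int and IAPLTR2a2_Mm) and 1 of 9 MuLV-like subfamilies (MMERGLN-int, slope 2.23). IAPEz-int had a slope of 0.60 (SE 0.59, limma adjusted p 0.421) and RLTR4_MM-int 0.42 (SE 0.41, adjusted p 0.416). Both slopes lay within 2 SE of growth in proportion. L1Md_A, low among the young L1 at 4 months, had a slope of -0.38 (SE 0.45, adjusted p 0.501), while L1Md_F2 rose with 1.91 (SE 0.19, adjusted p 3.22e-07). ID_B1, the SINE with the smaller difference at 4 months in its family, had a slope of 0.25 (SE 0.27, adjusted p 0.467).

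Some subfamilies that were level between the sets did track the total at 9 months. Of the 77 that overlapped at 4 months, 13 rose (16.9 percent), against 346 of the 843 separated ones (41.0 percent). At a 9-month mean of at least 100 these were 9 of 27 (33.3 percent) and 233 of 330 (70.6 percent). ORR1A0-int rose with a slope of 2.78 (SE 0.47, limma adjusted p 9.49e-05), MMSAT4 with 2.28 (SE 0.41, adjusted p 0.000203) and MurSatRep1 with 1.26 (SE 0.30, adjusted p 0.00243). UCON4, lowest of all at 4 months, rose as well, with 2.03 (SE 0.67, adjusted p 0.0203). MTA_Mm-int rose with 1.98 (SE 0.28, adjusted p 1.32e-05) and its LTR with 1.57 (SE 0.21, adjusted p 9.68e-06), and the difference between these slopes was not tested. Over all 920 subfamilies, the 4-month difference and the 9-month slope had a Pearson r of 0.15 and a Spearman rho of 0.15, given as a description. These points share libraries, and the slopes rest on a narrow range of totals.

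**Figure D5:**
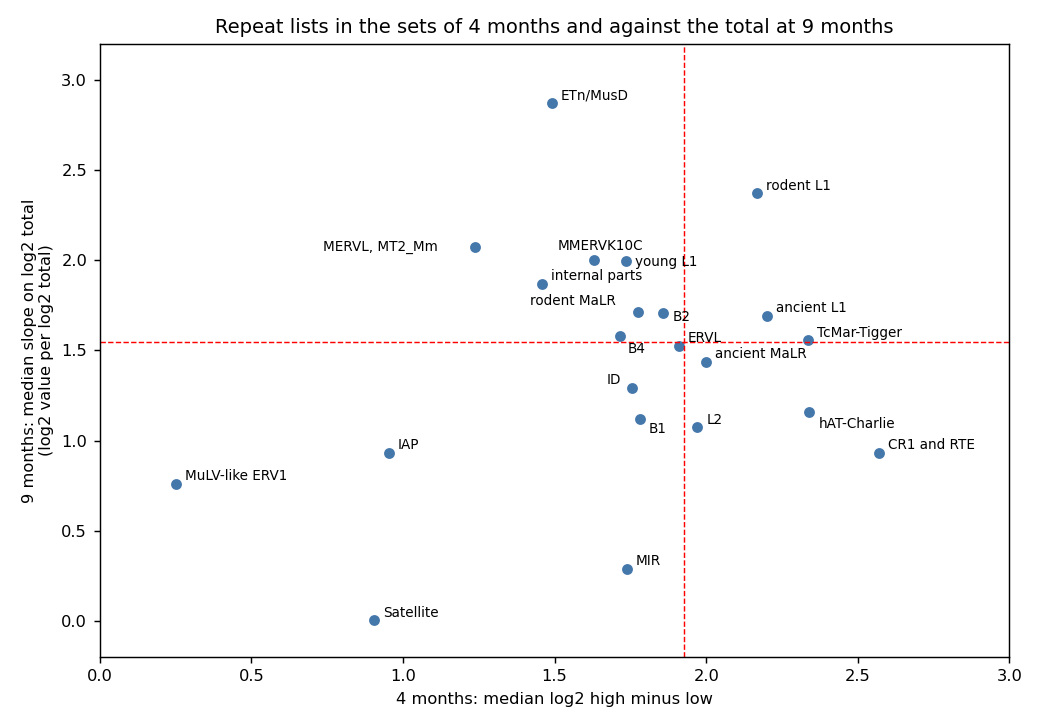
Median slope on the log2 total at 9 months (13 samples, vertical) against the median difference between the sets at 4 months (10 samples, horizontal) for each repeat list, with dashed lines at the medians of all 920 subfamilies (1.54 and 1.93). IAP and MuLV-like ERV1 are low on both axes, satellites and MIR are lowest in slope, and internal parts lie left of and above the lines.

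Shares of the signal at 9 months were last correlated with the total over the 13 samples, for 29 lists with Benjamini-Hochberg adjustment. Unlike the slopes, these correlations had no genotype term, so genotype and total are not separated in them. Correlations within each genotype are given further on. By permutation, 14 lists passed with Pearson's r, 7 rising and 7 falling in share, and 9 passed with Spearman's rho. The share of MIR fell with the total (r = -0.96, rho = -0.97, permutation adjusted p 0.000145 for both, from the smallest p that 100000 permutations can give), from 6.91 percent at its highest to 5.16 percent at its lowest. The share of the rodent MaLR rose (r = 0.91, rho = 0.95, permutation adjusted p 0.000145 for both), as did those of the rodent L1 (r = 0.88, rho = 0.84, permutation adjusted p 0.00087 and 0.00338) and B2 (r = 0.84, rho = 0.67, permutation adjusted p 0.00447 and 0.0478). Those of MERVL and MT2_Mm (r = 0.79), ERVL-MaLR (r = 0.75), ETn/MusD (r = 0.76) and MMERVK10C (r = 0.73) also rose. Those of ERVL (r = -0.83), CR1 and RTE (r = -0.84) and satellites (r = -0.77) fell. So did the ancient MaLR (r = -0.77), L2 (r = -0.76) and hAT-Charlie (r = -0.71). ETn/MusD, MMERVK10C, ancient MaLR, L2 and hAT-Charlie did not pass with rho. At 4 months some stood the other way. High against low, MIR held 4.18 and 3.75 percent, L2 2.37 and 1.87, and MERVL with MT2_Mm 0.36 and 0.42. The shares of IAP (r = 0.21, rho = 0.20, permutation adjusted p 0.636 and 0.683) and MuLV-like ERV1 (r = -0.25, rho = -0.01) passed with neither. Without the 2 samples farthest from the median total, PS19 replicates 1 and 2 of 9 months, 6 lists passed, with r of -0.91 for MIR and 0.87 for the rodent MaLR, and 23 of 29 kept their sign. Within the 7 PS19 samples none passed with r and 2 with rho (ERVL-MaLR and the rodent MaLR), and within the 6 control samples 2 passed with r (the rodent MaLR and MIR) and none with rho. A list that does not vary with the total falls in share by construction, since the total is the denominator.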

How the data were processed

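The series measured RNA in mouse spinal cord. Per the submitters' processing notes, the authors used Trimmomatic, STAR and DESeq2 with build mm10, without versions. The deposited signal is reads per repeat subfamily divided by a size factor. Not given in the sources used here: the counting program, the repeat annotation, the handling of reads with many matches and the features behind the size factors. Values were whole multiples of 1 read (100 percent of values, within 0.1 percent of a read), which gave the reads. As a check for a library deposited under 2 names, sample pairs within a set were compared with counting noise, and none was that alike (lowest chi-square per degree of freedom 3.73). Related subfamilies share sequence and are not independent.

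The table has 1135 rows, and 0 columns were left unused. Subfamilies with a mean of at least 10 over 23 samples were tested on log2(value + 1), which understates differences of low subfamilies, with limma 3.58.1 (empirical Bayes with trend) in R 4.3.3 and Benjamini-Hochberg adjustment at 0.05. edgeR 4.0.16 and DESeq2 1.42.0 ran on the recovered reads. Correlations used 100000 permutations. Fits were tested on simulated reads. Shares and sums used exact permutation where the 10 samples of 4 months were compared.

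The sets, the repeat lists and the naming rule were chosen with earlier results of these data known. The rule named the 8 largest and 8 smallest differences at a mean of at least 50 at 4 months, all at 0 or below, the highest member of each list, the 4 widest pairs each way, up to 8 calls each way per test, and 28 fixed names. MMSAT4, MurSatRep1, ORR1A0-int, L1Md_Gf, IAPEY3-int and members named to account for counts of 13 or fewer were added after their values were seen. Alternatives were other pseudocounts, filters, scalings, covariates and leaving out each sample.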

Additional observations from a re-analysis of the deposited data

Results flagged for a closer look

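In groups of 4 to 10 samples, a sample far from the others of its set was found in 16 of 207 groups of values examined, and chance flags about 1 in 20. Of these, 13 were control replicate 2 of the high set, the sample with the highest total, and the subfamilies share that library. There it had 14264 normalized reads of Lx (7904 to 9398 in the other 5 samples), 28840 of Lx8 (16073 to 20518), 22889 of L1_Mus3 (12329 to 16020) and 9318 of L1M5 (5755 to 6909). ID4 was at 17915 (11353 to 13745), Charlie1 at 1085 (610.5 to 771.5), Tigger1 at 1407 (869 to 1008), Tigger18a at 161.1 (64.5 to 100.3) and Kanga1a at 118 (65.8 to 84.5). Among LTR internal parts it had 6978 of MTA_Mm-int (4858 to 5574), 1722 of RLTR19-int (1320 to 1358) and 2229 of MMERVK10C-int (1343 to 1627). GSAT_MM, the major satellite, was at 43.1 there (11.8 to 20.8).

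In the low set GSAT_MM was at 76.4 in PS19 replicate 5 (0 to 12.5 in the other 3 samples), and SYNREP_MM, the minor satellite, at 3.41 in PS19 replicate 4 and at 0 in the others. The ERVL share was 2.46 percent in control replicate 5 against 2.55 to 2.56 percent in the other low samples.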

How the results depend on the processing

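The median difference between the sets was 1.93 with the deposited scaling, 0.036 with TMM scaling within repeats and 0.34 with shares of repeat reads, and the number of separated subfamilies was 843, 130 and 321. Leaving out each sample gave medians of 1.79 to 2.10 and counts of 844 to 856. Pairs with the internal part lower numbered 29 to 30, with median gaps of -0.20 to -0.09. PS19 against control stayed at 0 calls in every fit run, and the interaction at 0 except when samples were left out (0 to 65). Subfamilies called in the 9-month slope numbered 367, and 262 to 388 when samples were left out, the fewest without control replicate 3 of 9 months. Of 29 lists, 14 shares varied with the total by Pearson's r (9 by Spearman's rho), 6 without the 2 farthest samples (6), 0 in PS19 alone (2) and 2 in controls alone (0), where fewer samples enter. No paired analysis was possible because the labels carry no replicate numbers, those used here being accession order. Low-set values of subfamilies under about 50 normalized reads rest on few reads, which limits their differences.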
